A study of Mus musculus with 6 samples.

Results

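Chemokine receptors and colony-stimulating factor receptors of colonic macrophages were followed as a set of 9 genes: the chemokine receptors *Cx3cr1*, *Ccr1*, *Ccr2*, *Ccr7* and *Cxcr4*, and the growth factor receptors *Csf1r*, *Csf2ra*, *Csf2rb* and *Csf3r*. The set was named by gene symbol, and all 9 were found among the 14097 genes of the RNA-seq table. All 9 also reached 50 normalized counts in at least 1 library, as did 11067 genes in all. The cells were lamina propria (LP) MΦs of the colon, sorted as CD45+CD11b+CD11cintCD103-CD64+Ly6C-MHCII+ (the P3/P4 fraction, that is, MΦs past the Ly6C+ monocyte stages), untreated and put straight into lysis buffer. They came from 129SvEv mice lacking the IL10 receptor β chain (*Il10rb*-/-, KO) and from heterozygous *Il10rb*+/- controls (Het), which carry 1 intact allele. Each genotype was sampled at 1, 3 and 12 weeks of age, with 1 library per genotype and age, 6 libraries in all. At 1 week a library held the cells of 3 to 5 pooled mice by the labels, and at 3 and 12 weeks those of 1 mouse. The deletion is not limited to MΦs, and the chain also serves receptors other than that for IL10.

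From weaning on, monocytes leave the blood and enter the colonic LP, where they mature step by step into resident MΦs. The paper describes them as taking the place of MΦs derived from the yolk sac. It presumes a yolk-sac origin for the MΦs of early infancy, without lineage tracing. A change of lineage and a change of age between the libraries therefore cannot be told apart here. CCR2, the receptor for CCL2, CCL7 and CCL12, brings Ly6C+ monocytes out of the bone marrow and into tissue, while CX3CR1, the receptor for fractalkine, is gained as intestinal MΦs mature and is a hallmark of the resident cells. CSF1R, which binds CSF1 and IL34, gives MΦs their survival signal. The α chain encoded by *Csf2ra* and the shared β chain encoded by *Csf2rb* form the receptor for GM-CSF, and *Csf3r* encodes the receptor for G-CSF, best known from neutrophils. CCR7 directs dendritic cells and activated antigen-presenting cells to lymph nodes, CXCR4 answers CXCL12, and CCR1 answers CCL3, CCL5 and several related inflammatory chemokines.

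One of these genes has a near-identical copy, which bears on what its values can mean. *Csf2rb* has a tandem paralog, *Csf2rb2*, which encodes the β chain specific to IL3 in the mouse. Their coding sequences were 95.2% identical over 2628 aligned bases in the GENCODE annotation of GRCm38, and the longest run without a difference covered 242 bases, at positions 2083 to 2324 of both coding sequences. The run is shown in capitals, 5′ to 3′, with 15 bases on either side in lower case, because a 75-base read inside it cannot be given to either gene.
Csf2rb: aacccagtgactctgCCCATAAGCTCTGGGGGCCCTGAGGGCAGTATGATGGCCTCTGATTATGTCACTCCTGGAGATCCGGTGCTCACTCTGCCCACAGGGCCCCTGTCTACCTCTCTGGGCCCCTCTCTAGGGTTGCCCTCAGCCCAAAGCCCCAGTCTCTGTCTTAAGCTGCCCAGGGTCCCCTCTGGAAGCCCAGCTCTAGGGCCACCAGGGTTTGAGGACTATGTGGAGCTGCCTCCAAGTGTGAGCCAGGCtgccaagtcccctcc
Csf2rb2: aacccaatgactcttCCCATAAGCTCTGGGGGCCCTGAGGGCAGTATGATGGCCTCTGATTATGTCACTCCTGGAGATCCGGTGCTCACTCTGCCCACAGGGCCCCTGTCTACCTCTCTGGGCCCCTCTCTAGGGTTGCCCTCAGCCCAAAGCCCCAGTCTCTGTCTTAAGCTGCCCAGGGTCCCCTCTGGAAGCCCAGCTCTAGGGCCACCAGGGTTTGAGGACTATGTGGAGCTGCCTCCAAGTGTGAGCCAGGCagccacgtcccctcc
Over all exons, 7.15% of the 75-base stretches of *Csf2rb* also occurred in *Csf2rb2*.

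*Csf1r* shared 13.9% of its stretches with *Hmgxb3*, a gene on the opposite strand whose exons overlap it. The sources used here do not state whether counting used the strand, so reads of that overlap cannot be told apart between the 2 genes. For *Csf3r* the share was 3.13%, for *Cx3cr1* 0.113%, and for *Ccr1*, *Ccr7*, *Cxcr4* and *Csf2ra* it was 0.

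The libraries held between 6700337 and 40754971 reads on the listed genes, and 1 read was worth between 0.473 and 2.43 normalized counts. *Il10rb* had 1221, 939 and 1107 normalized counts in the Het libraries at 1, 3 and 12 weeks and 12.0, 24.6 and 27.4 in the KO libraries, as labelled. The genes of the sort gate *Ptprc*, *Itgam*, *Fcgr1* and *H2-Ab1* were present at 1279 or more in every library, and *Itgae*, the gene for CD103, at 33.7 or fewer. *Ly6c2*, whose protein the gate selects against and which has a close copy in *Ly6c1*, stood at 143 or fewer in 4 libraries, at 285 in the 3-week KO library and at 2611 in the 12-week KO library. That last library stood apart in several marker lists. With receptor genes left out of the lists, the summed level of 15 macrophage markers was 253741 there and 327510 to 542941 elsewhere, with *Folr2* at 5.73 and *Cd163* at 52.2. The 13 monocyte markers summed to 42745 there and 5082 to 24880 elsewhere, and the 12 neutrophil markers to 7589 there and 451 to 2947 elsewhere. Among the neutrophil markers, *S100a9* reached 2906 and *Ly6g* 15.9, and none of the 12 was at 0, against 3 to 6 at 0 in each other library. Among the 13 dendritic cell markers, which summed to 10805 there and 3877 to 9753 elsewhere, only *Siglech* was at 0 in that library. T cell markers (9 of 10 in the table) summed to 444 to 2482, B and plasma cell markers (8 of 10) to 4991 to 24887, epithelial markers (13 of 14) to 189 to 2388 and eosinophil markers (5 of 8) to 93.0 to 449 over the 6 libraries, and the 12-week KO library was the highest of the 6 in the epithelial list and the lowest in the eosinophil list. The part of these markers in the receptor results was not tested. In RNA from sorted cells in bulk, fewer cells of a type and less RNA per cell cannot be told apart.

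Across the 6 libraries, *Ccr7* had the widest range of the 9 receptors, 37.6-fold from lowest to highest, followed by *Cx3cr1* at 22.2-fold. *Cx3cr1* was lowest and *Ccr7*, *Csf2rb*, *Csf3r*, *Csf2ra* and *Ccr1* were highest in the 12-week KO library, although *Ccr1* and *Csf2ra* were highest at 1 week when libraries were scaled to equal totals. *Csf1r*, *Csf2ra* and *Ccr1* varied least, by 1.71-fold, 1.58-fold and 1.76-fold. Of the 9, 5 were higher in KO than in Het MΦs at 1 week, 5 at 3 weeks and 6 at 12 weeks, against 46.0%, 52.1% and 52.0% of the 11067 genes. The median log2 ratio of the 9 was 0.04, 0.08 and 0.56 at the 3 ages, and that of all 11067 genes -0.04, 0.02 and 0.04.

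**Figure D1:**
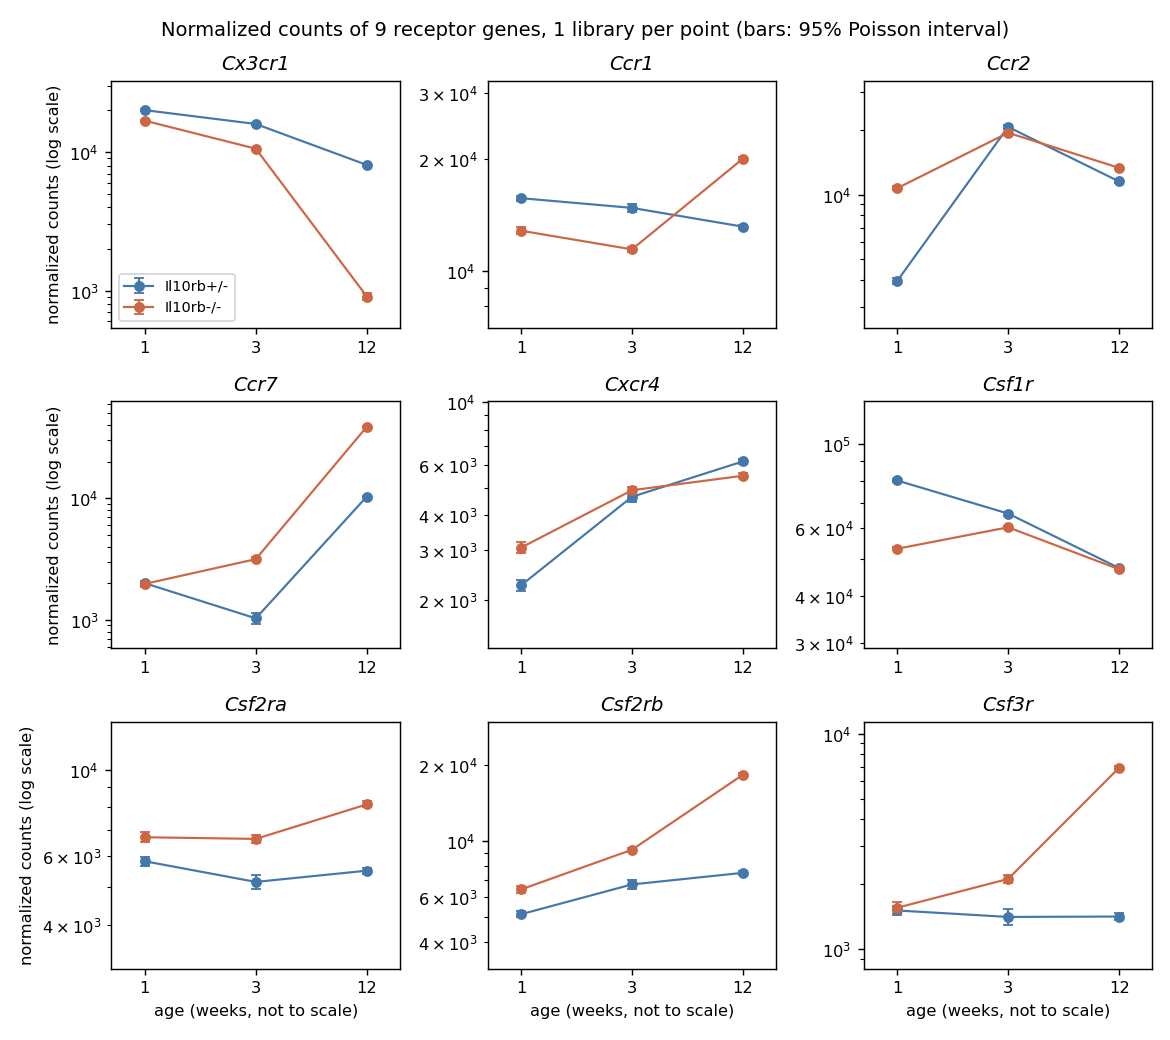
Normalized counts (log scale, each panel with its own range) of the 9 receptor genes against age in weeks (not to scale), with 1 library per point, Il10rb+/- in blue and Il10rb-/- in orange, and bars for the exact 95% Poisson interval of the reads. The lines join ages of different mice. *Cx3cr1* drops to 906 and *Ccr7* reaches 38707 in the 12-week KO library, and the *Csf2ra* points of the genotypes do not cross.

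*Cx3cr1* (chr9:119901616-120069879, minus strand, GRCm38) had 20086, 15952 and 8074 normalized counts in Het MΦs at 1, 3 and 12 weeks and 16857, 10577 and 906 in KO MΦs. The 6 libraries therefore stood in strict order of age, and within each age the KO library was the lower of the pair. No neighbours in this order were within counting error of each other. In Het MΦs the level at 12 weeks was 2.49-fold below that at 1 week, and in KO MΦs 18.6-fold below. The log2 ratio of KO over Het was -0.25 at 1 week (95% counting interval -0.29 to -0.22), -0.59 at 3 weeks (-0.64 to -0.55) and -3.16 at 12 weeks (-3.23 to -3.08), the last an 8.91-fold lower level. These intervals come from the reads of 1 library against 1 and hold no variation between mice. Over 3-fold lower levels in KO were seen for 0.75%, 0.642% and 9.99% of all genes at the 3 ages, and for none, none and 1 of the 9 receptors, *Cx3cr1* being the 1 at 12 weeks. In the same pair of libraries the summed macrophage markers were 253741 in KO and 503411 in Het.

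*Ccr2* (chr9:124101950-124113557, plus strand) followed another course, with 3960, 20629 and 11505 normalized counts in Het and 10700, 19378 and 13311 in KO MΦs. It was highest at 3 weeks in both genotypes and lowest in the 1-week Het library, 5.21-fold below the 3-week Het library. Its largest genotype ratio lay at 1 week, at a log2 ratio of 1.43 (1.38 to 1.49), which is 2.70-fold and stood at the 96.8th percentile of all genes, just below the 3-fold limit. At 3 weeks the ratio was -0.09 (-0.13 to -0.05) and at 12 weeks 0.21 (0.18 to 0.24), the latter becoming -0.01 under scaling to equal totals. At 1 week the other 13 monocyte markers summed to 5082 in Het and 6142 in KO MΦs. *Ly6c2*, at 5.95 and 4.49, was too low to compare, the KO value being worth 3 reads. Of all 14 monocyte markers, *Ccr2* included, 9 were higher in KO at that age, beside 46.0% of all genes. Over 3-fold higher were 3 and over 3-fold lower 0, beside 2.75% and 0.75% of all genes. The median log2 ratio of the 14 was 0.42.

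Since *Ccr2* is the monocyte receptor and *Cx3cr1* the receptor of mature intestinal MΦs, their reads were also set against each other within each library, where scaling between libraries has no effect. There were 0.197 *Ccr2* reads per *Cx3cr1* read (95% interval 0.191 to 0.204) in the 1-week Het library and 0.635 (0.616 to 0.654) in the 1-week KO library. At 3 weeks the ratio was 1.29 (1.25 to 1.34) in Het and 1.83 (1.79 to 1.87) in KO. At 12 weeks it was 1.42 (1.40 to 1.45) in Het and 14.7 (13.9 to 15.5) in KO. The KO library had the higher ratio at each of the 3 ages, beyond counting error in each pair. At 1 week the pair was furthest apart in *Ccr2*, and at 12 weeks in *Cx3cr1*.

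**Figure D2:**
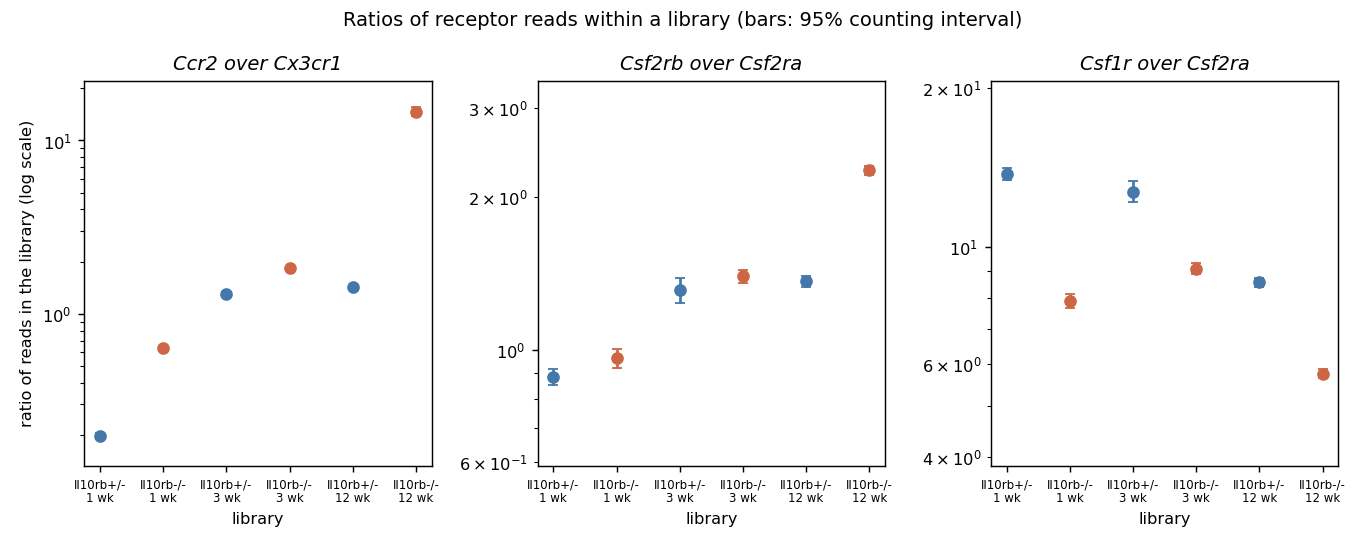
Reads of one receptor gene per read of another within each library (log scale), with Il10rb+/- in blue, Il10rb-/- in orange and bars for the exact 95% counting interval. *Ccr2* over *Cx3cr1* spans 0.197 to 14.7, *Csf2rb* over *Csf2ra* 0.883 to 2.26 and *Csf1r* over *Csf2ra* 5.76 to 13.8, and the 12-week KO library is at an end of each range.

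*Ccr7* (chr11:99144196-99155077, minus strand) had 2003, 1029 and 10331 normalized counts in Het and 1976, 3159 and 38707 in KO MΦs. Both 12-week libraries lay above the other 4, the KO library far above. The 1-week libraries did not differ beyond counting error, at a log2 ratio of -0.02 (-0.12 to 0.08). The ratio was 1.62 (1.47 to 1.77) at 3 weeks and 1.91 (1.88 to 1.93) at 12 weeks, that is 3.07-fold and 3.75-fold higher in KO. Over 3-fold higher levels in KO were found for 2.75% of all genes at 1 week, 1.34% at 3 weeks and 4.03% at 12 weeks, and for none, 1 and 2 of the 9 receptors. *Ccr7* was the 1 at 3 weeks, where the lower bound of its interval and its value under scaling to equal totals were below 3-fold. At 12 weeks it was joined by *Csf3r*. The other 13 dendritic cell markers summed to 3877 in Het and 3930 in KO MΦs at 3 weeks, and to 6567 and 10805 at 12 weeks.

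*Ccr1* (chr9:123962124-123968692, minus strand) had 15662, 14747 and 13125 normalized counts in Het and 12801, 11402 and 20019 in KO MΦs. Its genotype ratio changed side with age, at -0.29 (-0.33 to -0.25) and -0.37 (-0.42 to -0.33) at 1 and 3 weeks and 0.61 (0.59 to 0.63) at 12 weeks on the log2 scale. *Cxcr4* (chr1:128588199-128592293, minus strand) had 2257, 4638 and 6185 normalized counts in Het and 3067, 4892 and 5504 in KO MΦs. It stood in order of age in both genotypes, and its genotype ratio passed from 0.44 (0.36 to 0.53) through 0.08 (0.0015 to 0.15) to -0.17 (-0.21 to -0.13).

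**Figure D3:**
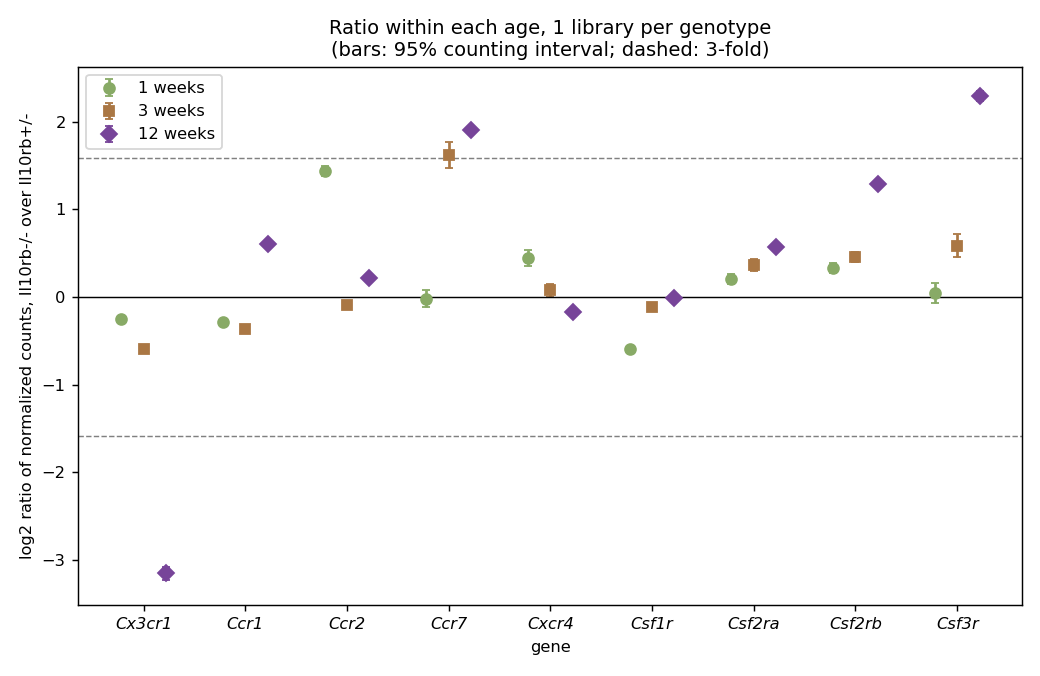
Log2 ratio of normalized counts, Il10rb-/- over Il10rb+/-, for each receptor gene at 1, 3 and 12 weeks, with bars for the 95% counting interval of 1 library against 1 and dashed lines at 3-fold. *Cx3cr1* at 12 weeks (-3.16) lies below the lower line, and *Ccr7* at 3 weeks (1.62) and 12 weeks (1.91) and *Csf3r* at 12 weeks (2.29) lie above the upper line.

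Among the growth factor receptors, *Csf1r* (chromosome 18, plus strand) was the most abundant and the steadiest between genotypes after the first week. Het MΦs had 80123, 65622 and 47225 normalized counts at 1, 3 and 12 weeks and KO MΦs 53060, 60398 and 46878. The genotypes were furthest apart at 1 week, with a log2 ratio of -0.59 (-0.61 to -0.58), then -0.12 (-0.14 to -0.10) at 3 weeks. At 12 weeks the ratio was -0.01 (-0.02 to 0.0031), within counting error, in the same pair of libraries in which *Cx3cr1* differed 8.91-fold. Under scaling to equal totals, which also moved the median gene at 12 weeks from 0.04 to -0.19, the 12-week ratios shifted down together. *Csf1r* then stood at 35946 in the 12-week KO library and 42203 in the 12-week Het library. The match of the genotypes at 12 weeks thus depends on the scaling.

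The GM-CSF receptor chains were both higher in KO than in Het MΦs at each age. *Csf2ra* (chr19:61223957-61228429, minus strand) had 5818, 5149 and 5503 normalized counts in Het and 6704, 6639 and 8140 in KO MΦs. Its log2 ratios were 0.20 (0.15 to 0.26), 0.37 (0.30 to 0.44) and 0.56 (0.53 to 0.60). *Csf2rb* (chr15:78325752-78353847, plus strand) had 5140, 6748 and 7502 normalized counts in Het and 6445, 9261 and 18370 in KO MΦs. The ratios of this shared β chain were 0.33 (0.27 to 0.38), 0.46 (0.40 to 0.52) and 1.29 (1.26 to 1.32), the last being 2.45-fold. Within a library there were 0.883 to 1.39 *Csf2rb* reads per *Csf2ra* read in 5 libraries and 2.26 in the 12-week KO library, whose counting interval lay above those of the other 5. *Csf2rb2* followed the same order within each pair, with 1235, 1998 and 2884 normalized counts in Het and 1597, 2848 and 6375 in KO MΦs. There were 0.240 to 0.384 reads of *Csf2rb2* per *Csf2rb* read. Whether reads inside the 242-base run shown above were counted, and for which gene, is not stated in the sources used here.

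*Csf3r* (chr4:126024550-126044440, plus strand) had 1515, 1414 and 1420 normalized counts in Het MΦs at 1, 3 and 12 weeks, an almost level course, and 1559, 2120 and 6944 in KO MΦs. The 1-week libraries were within counting error of each other, at a log2 ratio of 0.04 (-0.07 to 0.16). The ratio was 0.58 (0.45 to 0.72) at 3 weeks and 2.29 (2.23 to 2.35) at 12 weeks, which is 4.89-fold and at the 98.0th percentile of all genes. The other 12 neutrophil markers summed to 2947 in Het and 1717 in KO MΦs at 3 weeks and to 1666 and 7589 at 12 weeks. At 3 weeks 9 of the 12 in Het and 6 in KO MΦs had 3 reads or fewer. Of the 10 in the list past the filter, *Csf3r* included, 3 were over 3-fold higher in KO at that age and 1 over 3-fold lower. The shares of all genes were 1.34% and 0.642%. At 12 weeks 8 of the 10 were over 3-fold higher in KO and 0 over 3-fold lower, beside 4.03% and 9.99% of all genes. Their median log2 ratio at 12 weeks was 3.07. *Csf3*, which encodes G-CSF, the ligand of this receptor, had 37.7, 75.4 and 232 normalized counts in Het and 68.9, 118 and 944 in KO MΦs.

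Both *Csf2ra* and *Csf3r* had all 3 KO libraries above all 3 Het libraries, the 2 receptors of 9 for which the genotypes did not overlap, as was the case for 5.64% of all genes. For *Csf2ra* the lowest KO library had 6639 and the highest Het library 5818 normalized counts, but under scaling to equal totals the groups overlapped, and those of *Csf2rb* did not. For *Csf3r* these values were 1559 and 1515, both at 1 week and within counting error of each other (log2 ratio 0.04, -0.07 to 0.16). The groups stayed apart under scaling to equal totals and under TMM, but the ratio of this pair was only 0.042 under both. *Csf2ra*, *Csf2rb* and *Csf3r* were higher in KO at all 3 ages, as were 17.4% of genes, and *Cx3cr1* and *Csf1r* were lower at all 3 ages, as were 17.2%. These 5 of 9 held under both other scalings.

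Per kilobase of exon, the scale on which levels may be compared between genes, *Csf1r* was the highest of the 9 in 5 libraries, at 8179 to 13877 normalized counts per kilobase. In the 12-week KO library *Ccr7* was the highest at 19569 per kilobase, with *Csf1r* second at 8119. *Csf1r* made up 46.5% of the summed per-kilobase level of the 9 receptors in the 1-week Het library and 17.2% in the 12-week KO library. The share of *Ccr7* was 1.77% in the 3-week Het library, 18.5% in the 12-week Het library and 41.4% in the 12-week KO library. *Cx3cr1* passed from place 3 at 1 week, with 14.9% in Het and 14.7% in KO MΦs, to 6.34% in the 12-week Het library and to place 9, at 0.426%, in the 12-week KO library. *Ccr1* kept between 14.3% and 18.5% in every library. *Csf3r* was last in the other 5 libraries, at 392 to 587 per kilobase, and reached 1924 in the 12-week KO library. By the mean over the 6 libraries the order was *Csf1r*, *Ccr1*, *Ccr7*, *Cx3cr1*, *Cxcr4*, *Csf2ra*, *Ccr2*, *Csf2rb* and *Csf3r*, and with the longest transcript as the length *Csf2ra* moved from place 6 to place 4.

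**Figure D4:**
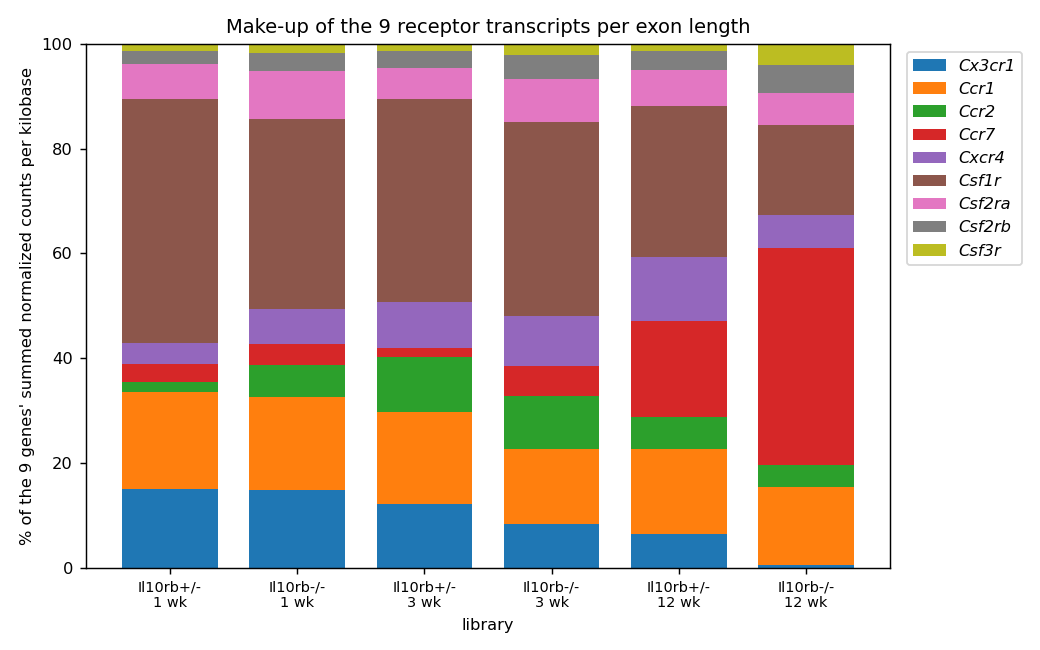
Share of each receptor gene in the summed normalized counts per kilobase of exon of the 9 genes, as a stacked bar for each library. The *Ccr7* share grows to 41.4% and the *Csf1r* share shrinks to 17.2% in the 12-week KO library, while *Ccr1* keeps 14.3% to 18.5% in every library.

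The replicated comparison of genotypes sets the 3 KO against the 3 Het libraries with age as a term, so that ages serve as replicates and the error holds any change of the genotype effect with age. In limma no receptor passed an adjusted p of 0.05, nor did any of the 11067 genes (0.0%). At an unadjusted p under 0.05 there were 853 genes (7.71%), among them 2 receptors, *Ccr7* and *Csf2rb*. On the log2(normalized counts + 1) scale, *Ccr7* was 12.61 ± 2.31 (SD, n = 3) in KO and 11.44 ± 1.71 in Het, a limma difference of 1.17 ± 0.39 (SE; adjusted p = 0.627). *Csf2rb* was 13.33 ± 0.77 in KO and 12.64 ± 0.28 in Het, differing by 0.69 ± 0.24 with the same adjusted p. *Cx3cr1* differed by -1.33 ± 0.57, *Csf3r* by 0.97 ± 0.43 and *Csf2ra* by 0.38 ± 0.17, again at a limma adjusted p of 0.627. Without the 12-week pair these differences were -0.42, 0.31 and 0.29, and those of *Ccr7* and *Csf2rb* 0.80 and 0.39. The differences of *Ccr1* (-0.02), *Cxcr4* (0.12), *Csf1r* (-0.24) and *Ccr2* (0.52) were each less than 2 times their error, with intervals of -0.66 to 0.62, -0.34 to 0.57, -0.86 to 0.38 and -0.30 to 1.33.

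Ages were compared in the same fit, with the genotypes as the 2 libraries of each age. From 1 to 12 weeks *Ccr7* rose by 3.33 ± 0.48 on the log2 scale (limma adjusted p = 0.0261), from 10.96 ± 0.014 (SD, n = 2) to 14.29 ± 1.35. *Cxcr4* rose by 1.15 ± 0.22 (limma adjusted p = 0.0449), from 11.36 ± 0.31 to 12.51 ± 0.12. Together they were the 2 receptors called higher, beside 5.01% of all genes, and none was called lower, beside 2.23% (7.25% in either direction). At an unadjusted p under 0.05 *Cx3cr1* and *Csf2rb* joined them, 4 receptors beside 31.1% of genes. The call for *Ccr7* held with each library left out in turn and under each scaling, at 2.84 under scaling to equal totals, which lowers every gene's 12-week level against its 1-week level. The call for *Cxcr4* was lost under TMM (limma adjusted p = 0.0505), under scaling to equal totals (0.0975) and without the 1-week Het (0.173), 1-week KO (0.0880), 3-week Het (0.0936) or 3-week KO library (0.0924). *Cx3cr1* differed by -2.77 ± 0.70 over the same interval and missed the threshold (limma adjusted p = 0.0706), but passed it without the 12-week KO library (-1.40, limma adjusted p = 0.0034), without the 12-week Het library, under scaling to equal totals and with the filter applied to every library. *Csf2rb* differed by 1.03 ± 0.30 (limma adjusted p = 0.0892), and the remaining 5 had adjusted p values of 0.182 to 0.768. None of the 9 receptors passed limma between 1 and 3 weeks, where 0.00904% of genes were called higher, 0.00904% lower and 0.0181% in either direction, and none passed between 3 and 12 weeks, where 0.0271% were called higher and 0.0% lower. At an unadjusted p under 0.05 there were 2 receptors in the first interval, *Ccr2* and *Cxcr4*, beside 8.65% of genes, and 2 in the second, *Ccr7* and *Cx3cr1*, beside 20.4%. *Ccr2* came nearest in the first interval, at 1.62 ± 0.40 (limma adjusted p = 0.320), and *Ccr7* in the second, at 3.47 ± 0.48 (limma adjusted p = 0.101). The 3 contrasts between ages share libraries.

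**Figure D5:**
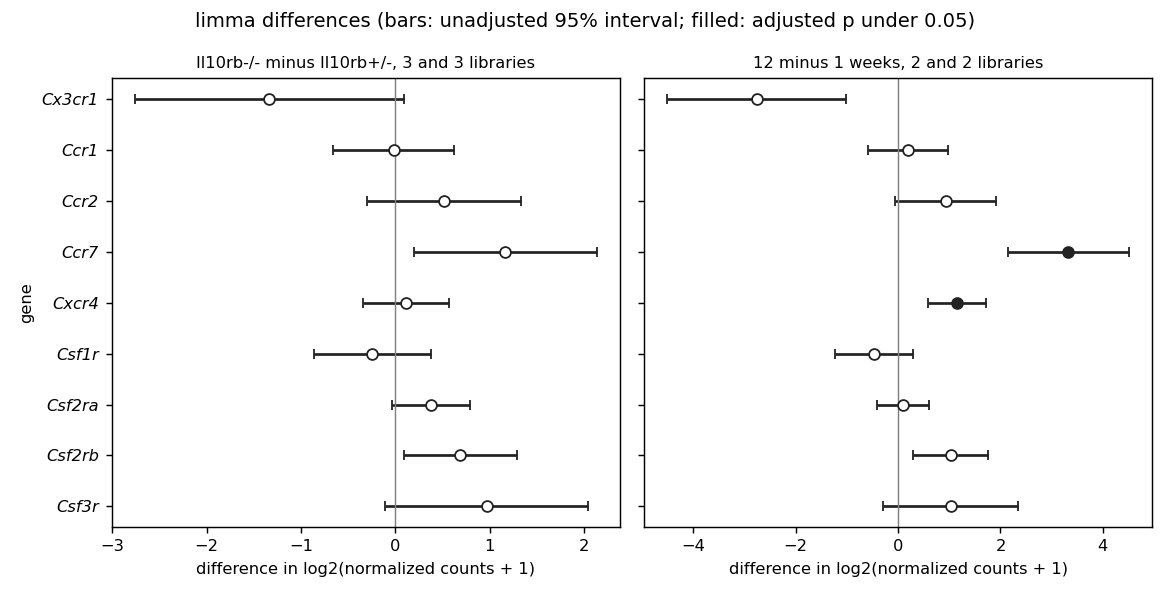
Differences in log2(normalized counts + 1) from limma for the 9 receptor genes, left for Il10rb-/- minus Il10rb+/- (3 and 3 libraries) and right for 12 minus 1 weeks (2 and 2 libraries), with bars for the unadjusted 95% interval and filled points for an adjusted p under 0.05. No point is filled on the left, and *Ccr7* (3.33) and *Cxcr4* (1.15) are filled on the right.

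Other chemokine receptors were counted from a list of 20, of which 18 were in the table and 13 reached 50 normalized counts in a library. None of the 13 passed limma for genotype or between any ages. In the 12-week pair the KO level exceeded the Het level more than 3-fold for 5 of the 13 and fell short of it more than 3-fold for 5, beside 4.03% and 9.99% of all genes. Among the most abundant were *Ccrl2*, which encodes a chemerin-binding receptor that does not signal, and *Cmklr1*, the signalling chemerin receptor. *Ccrl2* had 28633, 32448 and 30418 normalized counts in Het and 32195, 39577 and 102380 in KO MΦs, 1.75 higher at 12 weeks on the log2 scale. *Cmklr1* lay between 352 and 473 in all 6. *Cxcr5* encodes the CXCL13 receptor of B cells. Of the lists of receptors, ligands and signalling genes, it alone was over 3-fold apart in the same direction at all 3 ages. Its log2 ratios were -1.61, -1.71 and -1.87, the first 2 close to the 3-fold limit (1.58 on that scale). Counting intervals of its ratios between ages were wide, at -1.41 to -0.27 for 3 over 1 weeks in Het and -1.71 to -0.13 in KO MΦs. Those of its genotype ratios are not given here, so 3-fold is not shown to be passed beyond counting error. The B cell marker *Cd79a* moved with *Cxcr5*, at -0.94, -1.18 and -2.84.

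Receptors of the same families as the growth factor receptors numbered 14, with 13 in the table and 11 past the filter, and none of the 11 passed limma for genotype. From 1 to 12 weeks 2 rose, *Csf2rb2* by 1.61 (limma adjusted p = 0.0293) and *Kit*, the receptor for stem cell factor, by 2.94 (adjusted p = 0.0387), beside 5.01% of all genes called higher. In the 12-week pair 1 of the 11 was more than 3-fold higher in KO and 3 were more than 3-fold lower, beside 4.03% and 9.99% of all genes, and the median log2 ratio was -0.30. *Kit* had 129, 114 and 490 normalized counts in Het and 163, 541 and 2554 in KO MΦs. After *Csf2rb2*, *Il6ra* (1458 to 2067) and *Lifr* (735 to 2833) were the most abundant.

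Ligands of the 9 receptors were listed as 18 genes, of which 17 were in the table and 15 past the filter. None passed limma for genotype, and *Csf3* (3.17, limma adjusted p = 0.0228) and *Ccl6* (3.17, adjusted p = 0.0445) rose from 1 to 12 weeks, 2 of 15 beside 5.01% of all genes. At 12 weeks 6 of the 15 were over 3-fold lower and 2 over 3-fold higher in KO MΦs, beside 9.99% and 4.03% of all genes, and the median log2 ratio was -0.79. *Ccl4* and *Ccl3*, which encode inflammatory chemokines, were the most abundant, at 23828 to 55998 and 20437 to 41292 normalized counts. The CCR2 ligand *Ccl2* had 7794, 31419 and 31968 normalized counts in Het and 6756, 17455 and 1720 in KO MΦs, a log2 ratio of -4.22 at 12 weeks. The other CCR2 ligands *Ccl7* and *Ccl12* stood at -5.40 and -3.92 in that pair, in which *Ccr2* itself stood at 0.21. *Csf1*, the ligand of CSF1R, had 575, 482 and 794 normalized counts in Het and 625, 903 and 746 in KO MΦs, and *Csf2*, which encodes GM-CSF, 4.87 to 65.9. *Ccl7*, *Ccl12*, *Csf1* and *Csf2* were picked from the list after their values were seen, as were *Kit* and *Cd79a*.

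Genes of receptor signalling and its regulators were listed as 32, with 31 in the table and past the filter. None passed limma for genotype, and 5 rose from 1 to 12 weeks: *Jak2* by 1.74, *Stat3* by 1.36, *Stat5a* by 1.49, *Socs3* by 1.64 and *Cish* by 3.02, at limma adjusted p values of 0.0298, 0.0263, 0.0245, 0.0345 and 0.0114. These were 5 of 31, beside 5.01% of all genes called higher. JAK2 is the kinase bound to the GM-CSF receptor β chain, STAT5 its main transcription factor, and *Cish* and *Socs3* encode feedback inhibitors. *Cish* had 238, 630 and 1850 normalized counts in Het and 565, 1016 and 4776 in KO MΦs, the KO library being the higher at each age. At 12 weeks none of the 31 was over 3-fold higher and 1 was over 3-fold lower in KO, beside 4.03% and 9.99% of all genes. Higher by any amount in KO were 14 of 31 at 1 week, 21 at 3 weeks and 26 at 12 weeks. The shares of all genes were 46.0%, 52.1% and 52.0%. These counts are in the authors' scaling. Scaling to equal totals moved the median gene at 12 weeks from 0.04 to -0.19. The most abundant were *Rgs1*, a regulator that shortens chemokine receptor signals, at 26036 to 101224 normalized counts, *Cebpb* at 22772 to 90806 and *Socs3* at 16337 to 59079. *Rgs1* was lowest and *Cebpb*, a transcription factor of myeloid cells, highest in the 12-week KO library.

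PU.1, encoded by *Spi1*, is known to drive several of these receptor genes through sites with the core GAGGAA, and the upstream windows of the receptors were read for it. *Spi1* had 6592, 7481 and 9412 normalized counts in Het and 8525, 7983 and 12025 in KO MΦs. RefSeq gene starts of GRCm38.p6 were at hand for 6 of the 9 receptors, and in the 250 bases before the start 3 of the 6 held GAGGAA on either strand, beside 23.3% of 32851 promoters. The windows of *Csf2ra* and *Csf3r*, whose genotypes did not overlap in the authors' scaling, and of *Cx3cr1* are printed 5′ to 3′ on the strand of the gene. Each ends at the base before the start, with GAGGAA in capitals.
Csf2ra, chr19:61228419-61228668: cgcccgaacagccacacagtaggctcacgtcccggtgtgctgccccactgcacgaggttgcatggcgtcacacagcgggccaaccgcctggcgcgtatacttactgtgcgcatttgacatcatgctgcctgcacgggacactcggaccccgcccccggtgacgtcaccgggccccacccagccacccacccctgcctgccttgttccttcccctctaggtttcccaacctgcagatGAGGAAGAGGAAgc
Csf3r, chr4:126024409-126024658: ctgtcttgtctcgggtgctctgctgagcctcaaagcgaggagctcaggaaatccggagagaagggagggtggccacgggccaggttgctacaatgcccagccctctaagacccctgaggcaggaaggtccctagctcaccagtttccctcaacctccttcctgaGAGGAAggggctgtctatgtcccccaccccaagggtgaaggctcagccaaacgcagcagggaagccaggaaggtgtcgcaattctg
Cx3cr1, chr9:120068297-120068546: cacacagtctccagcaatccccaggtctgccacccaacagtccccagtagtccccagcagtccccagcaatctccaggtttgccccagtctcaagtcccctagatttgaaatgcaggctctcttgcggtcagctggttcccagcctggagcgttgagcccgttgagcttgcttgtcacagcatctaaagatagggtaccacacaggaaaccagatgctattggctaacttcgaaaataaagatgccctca
The *Csf2ra* window held 2 adjoining copies, 14 and 8 bases before the start, and the *Csf3r* window 1 copy, 86 bases before it. The third was *Ccr1*, with 1 copy 129 bases before its start, while the windows of *Cx3cr1*, *Ccr2* and *Cxcr4* held none. The STAT motif TTCNNNGAA was in none of the 6 windows and in 7.02% of promoters. The window of the paralog *Csf2rb2*, not among the 6, held TTCNNNGAA from base -15 and GAGGAA from base -167, counted from the start. A match to these letters does not show that a factor binds there, and a window without one shows only that these letters are not in it.

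For each receptor, the 3 genes with the most similar profile were taken by Pearson's r of log2 normalized counts over the 6 libraries, among 7844 genes with a mean of at least 200. These r values are a description of 6 libraries that differ in age, genotype and depth. *Tdrd3*, *Tmem119* and *Maf* were nearest to *Cx3cr1* (r = 0.998, 0.998 and 0.997). *Tmem119*, a marker gene of brain microglia, had 3140, 2317 and 1330 normalized counts in Het and 3087, 1790 and 120 in KO MΦs. *Maf*, a transcription factor of resident MΦs, had 4194, 3504 and 2132 in Het and 4028, 2835 and 257 in KO MΦs, the same order of the 6 libraries as *Cx3cr1*. *Osgin2*, *Psmd11* and *Clic4* were nearest to *Ccr7* (0.998, 0.998 and 0.997). *Pdk3*, *Rfwd2* and *Ccdc167* were nearest to *Csf3r* (0.9997, 0.996 and 0.996), and *Pdk3* had 663, 625 and 635 normalized counts in Het and 672, 967 and 3335 in KO MΦs. *Csf2rb* was closest to *Srebf1*, *Gcnt2* and *Vopp1* (0.998, 0.997 and 0.997), *Csf2ra* to *Raver1*, *Lap3* and *Dnaaf3* (0.981, 0.973 and 0.971), and *Csf1r* to *C2cd2*, *Smarcal1* and *Ptdss1* (0.997, 0.991 and 0.990). *Rin3*, *Sh3bp2* and *Agap3* came nearest to *Ccr2* (0.992, 0.975 and 0.971), *Pex3*, *Golga4* and *Phf20l1* to *Ccr1* (0.975, 0.972 and 0.970), and *Vim*, *Ttc39c* and *Ppdpf* to *Cxcr4* (0.998, 0.996 and 0.996). *Vim*, which encodes the intermediate filament vimentin, had 2628, 18030 and 36513 normalized counts in Het and 5632, 19402 and 22960 in KO MΦs.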

How the data were processed

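RNA-seq of P3/P4 MΦs was analysed from 1 table of 6 libraries, grouped by the genotype and age in the labels. Per gene the authors deposited a normalized signal, made from 75-base single-end reads aligned to mm10 with TopHat and scaled between libraries with DESeq size factors, in which a count of 0 stands as 1. Trim Galore and HTSeq are also named in the submitters' processing notes, and the tool versions, the gene annotation and the strand setting are not given in the sources used here. The labels name a SMART-Seq kit and the methods oligo dT beads. Values proved to be whole multiples of 1 step per library (100.0% of those above 1, within 0.001 reads), and the reads obtained this way served for intervals and read ratios only.

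The 9 receptors and all lists were chosen with earlier results of these data known. The study's filter was used, which keeps a gene that reaches 50 normalized counts in any library. limma 3.58.1 (R 4.3.3) was fitted to log2(value + 1) with terms for age and genotype and a trended prior variance, and p-values were adjusted by Benjamini-Hochberg over the 11067 genes kept (threshold 0.05). Nothing in the labels ties a KO mouse to a Het mouse beyond age. The p-values rest on what is left after the terms for age and genotype. With 1 library per genotype and age, that remainder mixes noise with any change of the genotype effect with age. The SDs given beside group means are the spread of the libraries in a group and are not the error of the test. Ratios within an age have 1 library per genotype and no test; their exact Clopper-Pearson 95% intervals, and the exact Poisson intervals of levels, cover counting error only. A count test, named in the design for the case of recovered counts, was not run. The check of the unit did not accept recovered reads as counts, because zeros are shown as 1. For intervals and read ratios a value of 1 was taken as 0 reads. Named genes were the 9 receptors, the 3 genes nearest to each in profile, the 3 most abundant genes of each pathway list, genes of those lists called for genotype or over 3-fold apart in the same direction at all 3 ages, and markers near 0; genes called between ages, a paralog and *Spi1* were added after their values were seen, and 1 gene that the rule names is not reported here. The alternatives were a pseudocount of 10, no filter, the filter in every library, scaling to equal totals or by TMM, no age term, 0.5 read for a count of 0, the longest transcript as length, and each library or age left out. Steps were tested on simulated data, and used Python 3.11.15, numpy 2.4.6, pandas 2.3.3, scipy 1.17.1 and matplotlib 3.10.9. Coordinates and exons came from GENCODE on GRCm38, where 14085 of the 14097 genes had an entry.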

Additional observations from a re-analysis of the deposited data

Results flagged for a closer look

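For 3 receptors the KO library stood, beyond counting error, on one side of the Het library at some ages and on the other side at another. *Ccr7* also changed side, but its 1-week ratio of -0.02 was within counting error, against 1.62 at 3 weeks and 1.91 at 12 weeks. The difference between ages was not tested, since each age has 1 library per genotype. *Ccr1* had log2 ratios of -0.29 at 1 week, -0.37 at 3 weeks and 0.61 at 12 weeks. *Ccr2* had 1.43 at 1 week, -0.090 at 3 weeks and 0.21 at 12 weeks, the last turning to -0.011 under scaling to equal totals. *Cxcr4* had 0.44 at 1 week, 0.077 at 3 weeks and -0.17 at 12 weeks.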

How the results depend on the processing

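The number of genes called for genotype was 0, and 1 with a pseudocount of 10 or with no replicate block (no age term), where no receptor was called; leaving out an age gave 3 to 61 genes (61 without 12 weeks, 20 without 1 week) and no receptor. Between 1 and 12 weeks 802 genes were called, 2476 under scaling to equal totals and 267 (without 1-week KO) to 3909 (without 12-week Het) with a library left out, 391 without 1-week Het and 2318 without 12-week KO, with 1 to 5 receptors (2 with all libraries, 1 under TMM). Between 1 and 3 weeks 2 genes were called, 8 with a pseudocount of 10, 9 with the filter in every library and 1 to 1016 (988 without 12-week Het, 1016 without 12-week KO) with a library left out, with 0 to 2 receptors. Between 3 and 12 weeks 3 were called, 8 with a pseudocount of 10, 22 with the filter in every library, 0 under scaling to equal totals and 1 to 3124 (3124 without 12-week Het, 657 without 12-week KO) with a library left out, with 0 to 5 receptors. Scaling to equal totals left 0 receptors over 3-fold higher in KO at 3 weeks and moved the median receptor ratio at 12 weeks to 0.34, and TMM moved it to 0.53.

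These log2 differences changed sign. Under scaling to equal totals, 12 over 1 weeks became -0.29 for *Ccr1* and -0.39 for *Csf2ra*, 12 over 3 weeks -0.0069 for *Ccr1*, -0.036 for *Cxcr4* and -0.13 for *Csf2ra*, and KO over Het at 12 weeks -0.011 for *Ccr2*. With an age left out, the genotype difference ran from -0.33 to 0.16 for *Ccr1* (0.12 without 1 week, 0.16 without 3 weeks) and from -0.046 (without 1 week) to 0.26 for *Cxcr4*. With a library left out, 3 over 1 weeks ran from -1.31 to 0.31 for *Cx3cr1* (positive without 1-week KO or 3-week Het), -0.39 to 0.14 for *Ccr1* (positive without 1-week Het or 3-week KO), -1.03 to 0.75 for *Ccr7* and -0.32 to 0.21 for *Csf1r* (positive without 1-week or 3-week Het), -0.23 to 0.035 for *Csf2ra* (positive without 1-week Het) and -0.53 to 0.87 for *Csf3r* (negative without 1-week KO or 3-week Het). For 12 over 1 weeks the range was -0.28 to 0.67 for *Ccr1* and -0.040 to 0.24 for *Csf2ra* (negative without 12-week or 1-week KO), and for 12 over 3 weeks -0.15 to 0.79 for *Ccr1* and -0.13 to 1.85 for *Csf3r* (negative without 12-week KO). The cause was not tested. Of all other values for single receptors, 417 kept direction and side of the threshold, 19 newly passed it, 6 lost their call and 18 without a test moved beyond their counting interval. The planned count test was not run. KO and Het libraries were paired by age alone, through the age term, since the labels give no replicate numbers. With 1 library per genotype and age, a difference between mice and one between genotypes cannot be told apart at any one age.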
